A study of Mus musculus with 10 samples.

Results

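The genes described here form the switch that turns on mitosis: the cyclins Ccna2, Ccnb1 and Ccnb2, their kinase Cdk1, the phosphatases Cdc25a, Cdc25b and Cdc25c that activate it, the kinases Wee1 and Pkmyt1 that hold it off, and Foxm1, a transcription factor for several of them. They were chosen by name for their place in the pathway, with earlier results of these data known, and are 10 of the 54446 genes in the count tables. At least 1 read was counted for 9 of them, and Wee1 had 0 counts in every library. Polyadenylated RNA was sequenced from tumours of TH-MYCN mice, which carry a human MYCN transgene under a tyrosine hydroxylase promoter and form neuroblastoma in the sympathetic nervous system. All 3 groups carry this transgene. The groups were tumours after 24 h of treatment (libraries 2, 3 and 4), tumours after 5 days of treatment (libraries 1, 2, 3 and 4) and untreated tumours (libraries 1, 2 and 3), numbered as in the labels. Treated mice received MLN8237 (alisertib), which blocks Aurora-A, a kinase of mitosis, and AZD6738 (ceralasertib), which blocks ATR, a kinase that responds to stalled replication. Titles call this a combination, whereas the design text links the drug names with "or". Doses, ages and sexes of the mice are not used here, and since the labels do not tie libraries to separate mice, a p-value here covers the spread among libraries, which may be technical.

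Cdk1 is inactive without a cyclin, and its complexes with cyclin B are kept off by phosphates that Wee1 and Pkmyt1 add and that the Cdc25 phosphatases remove. Active Cdk1 stimulates Cdc25 and restrains Wee1, so that the switch flips abruptly at the end of G2. ATR, through the kinase Chk1, leads to the inhibition and breakdown of Cdc25 proteins, while Aurora-A and its cofactor Bora activate Plk1, which in turn promotes Cdk1 activation. Many transcripts of the pathway, though not all, peak in G2 and mitosis under the control of FOXM1 and of the MuvB complex with B-Myb (MMB). Many of their promoters hold CCAAT boxes and a cell cycle homology region (CHR).

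At 24 h, of the 9 measured members, 5 (Ccnb1, Cdc25b, Cdc25c, Pkmyt1 and Foxm1) were higher in each 24 h library than in any untreated library, as were 7.1% of all tested genes. The ratio of group means, 24 h over untreated, was 1.49 for Cdc25b, 1.375 for Cdc25c and 1.34 for Ccnb1. It was 1.04 for Ccnb2, 1.00 for Ccna2, 0.973 for Cdk1 and 0.871 for Cdc25a, with overlapping groups. None of these differences passed the test over all genes. At 5 days, library 1 held less of every measured member than any of libraries 2 to 4, from 27.5% (Ccnb1) to 64.0% (Cdc25b) of their mean. In libraries 2 to 4, Ccnb1, Cdc25c and Foxm1 again lay above all untreated libraries, as did 6.48% of all genes.

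Promoters are shown because several members are known to share control elements there. Of the 10 members, 5 were found in a RefSeq promoter table for GRCm38.p6 (mm10) that gives 250 bases before and 50 after each gene's start, and these 5 are shown. Ccna2, Cdc25c, Wee1, Pkmyt1 and Foxm1 were not. The stretches below end before the first transcribed base in either annotation, and run 5′ to 3′ along the gene's strand. Capitals mark the searched motif letters, which were CCAAT for the CCAAT box, TTTGAA or TTTAAA for the CHR, TTTCCCGC or TTTGGCGC for an E2F site, TAAACA for the forkhead core and CACGTG for the E-box that MYC proteins bind, on both strands.
Ccnb1 (chr13:100786571-100786736, minus strand): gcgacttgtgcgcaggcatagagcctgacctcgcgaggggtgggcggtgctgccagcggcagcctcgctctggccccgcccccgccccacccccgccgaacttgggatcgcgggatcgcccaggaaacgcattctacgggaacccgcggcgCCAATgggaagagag
Ccnb2 (chr9:70421555-70421804, minus strand): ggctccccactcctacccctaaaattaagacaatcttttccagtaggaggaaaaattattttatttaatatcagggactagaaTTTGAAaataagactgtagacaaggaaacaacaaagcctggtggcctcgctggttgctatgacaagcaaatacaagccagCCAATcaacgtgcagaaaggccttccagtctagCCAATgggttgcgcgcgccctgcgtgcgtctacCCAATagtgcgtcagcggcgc
Cdk1 (chr10:69352939-69353162, minus strand): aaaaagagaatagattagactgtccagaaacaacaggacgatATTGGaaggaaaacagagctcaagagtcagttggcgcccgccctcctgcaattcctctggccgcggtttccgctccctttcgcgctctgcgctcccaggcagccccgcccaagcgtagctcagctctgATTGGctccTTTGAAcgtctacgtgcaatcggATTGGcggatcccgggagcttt
Cdc25a (chr9:109875329-109875578, plus strand): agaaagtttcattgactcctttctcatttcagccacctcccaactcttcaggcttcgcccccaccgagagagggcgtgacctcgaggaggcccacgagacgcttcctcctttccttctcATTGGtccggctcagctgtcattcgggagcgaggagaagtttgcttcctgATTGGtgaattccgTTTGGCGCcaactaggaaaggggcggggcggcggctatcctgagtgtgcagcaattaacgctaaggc
Cdc25b (chr2:131186698-131186947, plus strand): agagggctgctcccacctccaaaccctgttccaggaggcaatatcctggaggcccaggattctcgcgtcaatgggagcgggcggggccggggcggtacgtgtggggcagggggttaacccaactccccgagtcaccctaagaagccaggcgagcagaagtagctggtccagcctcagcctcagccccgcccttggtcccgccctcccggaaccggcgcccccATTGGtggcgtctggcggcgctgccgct
No printed motif overlaps another.

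The other CHR matches lie closer to the start or inside the transcribed part and are shown as windows of 30 bases, with the CHR in capitals.
Ccnb1 (chr13:100786511-100786540, minus strand): agcggcccggggTTTAAAcctaagcccggc
Ccnb2 (chr9:70421533-70421562, minus strand): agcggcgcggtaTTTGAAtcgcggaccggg
Cdk1 (chr10:69352910-69352939, minus strand): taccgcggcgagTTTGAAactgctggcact
Counting from the RefSeq start as base 1, these CHR letters begin at base -42 in Ccnb1, at base 5 in Ccnb2 and at base -15 in Cdk1. The promoters of Ccnb1, Ccnb2 and Cdk1 thus held a CHR, as did 27.6% of all 32851 promoters of the same length, and those of Cdc25a and Cdc25b held none. A CCAAT box was found in all 5, against 37.4% of all promoters. It occurred at bases -99 and -67 in Ccnb1, at -87, -54 and -21 in Ccnb2, and, read on the other strand, at -208, -80 and -48 in Cdk1, at -131 and -81 in Cdc25a and at -28 in Cdc25b. Only Cdc25a held E2F letters (TTTGGCGC at base -67, with any E2F letters in 1.6% of promoters), only Ccnb1 held the forkhead core (on the other strand at base 15, in 13.4% of promoters), and none of the 5 held the E-box (7.2%).

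The libraries were of nearly equal depth, with 5576926 to 5696436 counts each, and members are given as CPM (counts scaled to a common library size) with TMM-scaled library sizes. Members other than Wee1 had 60 to 2046 counts per library. At this depth 3 counts, taken as the limit for a gene with none, correspond to 0.513 to 0.649 CPM, which covers counting error only. In 9 libraries the 18 adrenergic genes that mark sympathetic tumour cells summed to 2234 to 3572 CPM. In 5-day library 1 they summed to 799.7 CPM, while 15 macrophage markers summed to 13610 CPM (577.7 to 1621 CPM elsewhere), 11 fibroblast markers to 19030 CPM (416.4 to 3123 CPM) and 8 adipocyte markers to 9172 CPM (47.33 to 1226 CPM). In 5-day library 2, markers of adrenal cortex summed to 1591 CPM, of liver to 307.2 CPM and of skeletal muscle to 360.8 CPM, against at most 12.71, 2.779 and 4.168 CPM in untreated libraries. Of the remaining 5-day libraries, library 3 held 94.17 CPM of the adrenal cortex list and library 4 held 129.6 CPM of the muscle list. In tumour pieces, fewer cells of a type and less RNA per cell cannot be told apart.

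**Figure D1:**
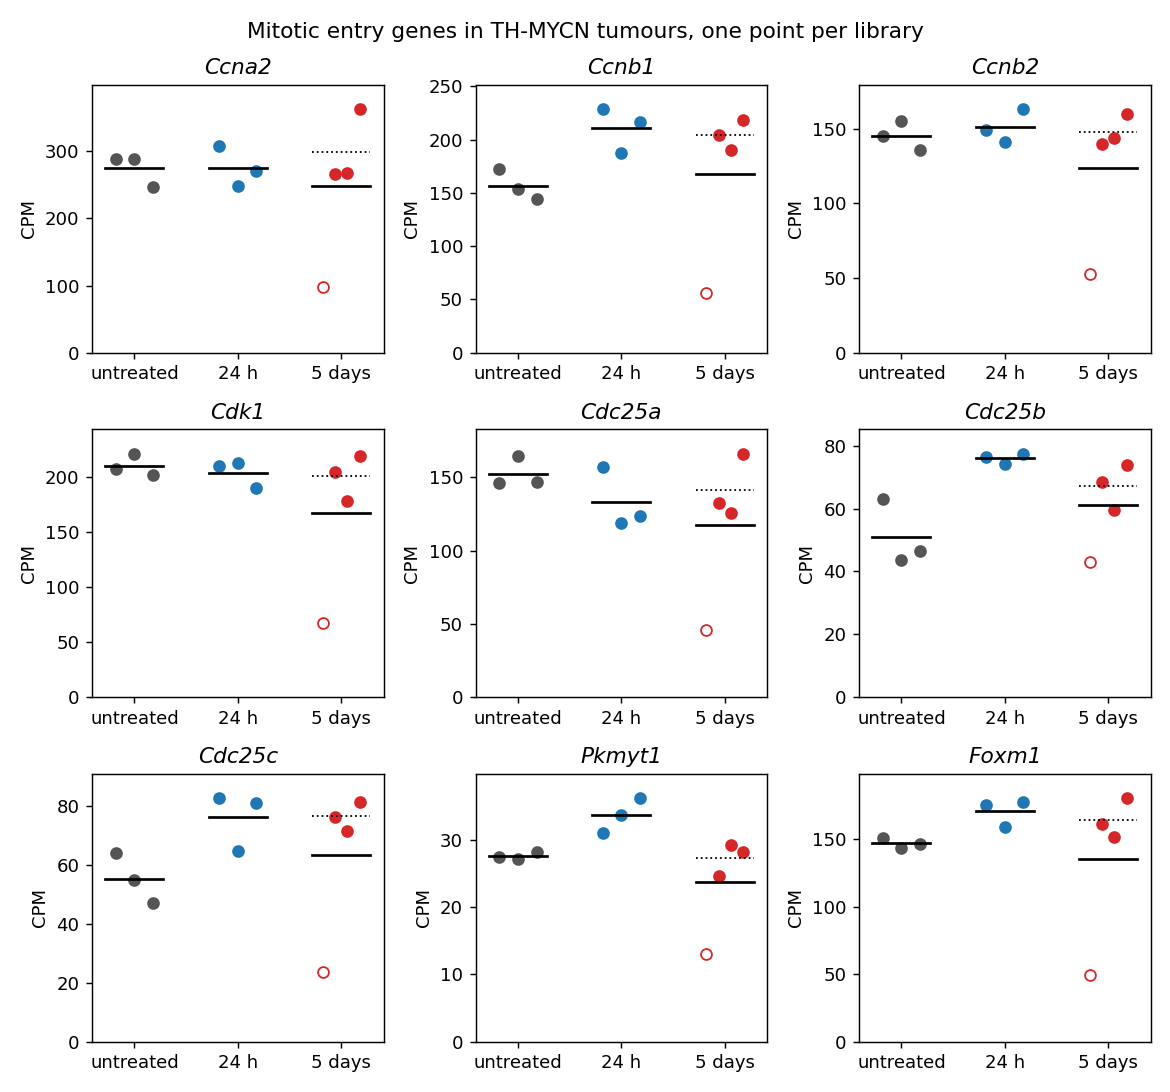
Normalised read counts (CPM, linear axes from 0) of the 9 measured members in untreated, 24 h and 5-day tumours, 1 point per library. Solid lines are means of all libraries of a group, the dotted line is the mean of 5-day libraries 2 to 4, and the open point is 5-day library 1, which is the lowest library for each of the 9 genes.

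Ccnb1 encodes cyclin B1, the main mitotic partner of Cdk1 (ENSMUSG00000041431, chr13:100778650-100786570, minus strand, mm10). It had 228.5, 187.2 and 216.6 CPM in 24 h libraries 2, 3 and 4, against 172.7, 153.6 and 144.0 CPM in untreated libraries 1, 2 and 3. The lowest 24 h library exceeded the highest untreated one. In 5-day libraries 1 to 4 it had 56.24, 204.8, 190.6 and 218.4 CPM, so that library 1 lay below and the other 3 above all untreated libraries. The log2 fold change was 0.43 ± 0.40 (SE) at 24 h and 0.10 ± 0.38 at 5 days against untreated tumours, with adjusted p = 0.9997 and 0.911 (edgeR quasi-likelihood test, Benjamini-Hochberg). With 5-day library 1 left out of the fit, which lowers the spread shared by the groups, the values were 0.43 ± 0.10 (adjusted p = 0.289) and 0.39 ± 0.10 (adjusted p = 0.336).

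Ccnb2 encodes cyclin B2, a second B-type cyclin found mostly at the Golgi (ENSMUSG00000032218, chr9:70407692-70421547, minus strand). It had 148.9, 141.2 and 162.9 CPM at 24 h, against 144.9, 155.0 and 135.5 CPM in untreated tumours. These groups overlapped in part, and 5-day libraries 2 to 4 had 139.6, 143.4 and 159.7 CPM, also within or near the untreated range. Library 1 of the 5-day group had 52.78 CPM. The log2 fold change was 0.06 ± 0.33 (SE) at 24 h and -0.22 ± 0.31 at 5 days, or 0.06 ± 0.09 and 0.03 ± 0.09 without 5-day library 1.

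Within a library, Ccnb1 over Ccnb2 needs no scaling between libraries. The ratio was 1.53, 1.32 and 1.33 at 24 h, against 1.19, 0.991 and 1.06 in untreated tumours. The groups did not overlap, and the ratio was 1.29-fold higher at 24 h on the log2(CPM + 0.5) scale, at the smallest p that 3 against 3 libraries can give (exact two-sided permutation test, p = 0.1, Benjamini-Hochberg adjusted over 12 ratio tests 0.343). In 5-day libraries 1 to 4 it was 1.07, 1.47, 1.33 and 1.37, of which library 1 fell inside the untreated range (exact permutation p = 0.114, adjusted 0.343).

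Ccna2 encodes cyclin A2, which serves both in S phase and at mitotic entry (ENSMUSG00000027715, chr3:36564865-36572150, minus strand). It had 308.1, 249.1 and 270.2 CPM at 24 h, against 287.9, 288.8 and 247.0 CPM in untreated tumours, with overlapping groups. In the 5-day libraries it had 97.12, 266.9, 267.3 and 362.7 CPM, with library 1 far below the other 3. Its log2 fold change was 0.01 ± 0.37 (SE) at 24 h and -0.14 ± 0.35 at 5 days. At its 3′ end, 21.1% of its exon bases lie inside the span of Exosc9 on the opposite strand, and 12.5% in exons of Exosc9. Reads there may be ambiguous.

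Cdk1, the kinase itself, lies on chr10:69335146-69352938 (ENSMUSG00000019942, minus strand). It had 210.1, 212.6 and 189.8 CPM at 24 h, against 207.1, 221.2 and 201.5 CPM in untreated tumours. The groups overlapped, and 5-day libraries 2 to 4, at 204.2, 178.7 and 218.9 CPM, overlapped with them too. Library 1 of the 5-day group had 67.70 CPM. Its log2 fold change was -0.04 ± 0.35 (SE) at 24 h and -0.32 ± 0.32 at 5 days, or -0.03 ± 0.09 and -0.06 ± 0.09 without 5-day library 1.

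Among the phosphatases, Cdc25b acts on the centrosomal cyclin B pool and starts mitotic entry (ENSMUSG00000027330, chr2:131186949-131198497, plus strand). It had 76.28, 74.34 and 77.46 CPM at 24 h, against 63.04, 43.72 and 46.54 CPM in untreated tumours. The 24 h libraries lay close together and all above the untreated ones. In the 5-day libraries it had 43.04, 68.42, 59.52 and 73.74 CPM, so that libraries 2 and 4 exceeded every untreated library and library 3 did not. The log2 fold change at 24 h was 0.57 ± 0.21 (SE), with adjusted p = 0.9997 (edgeR quasi-likelihood test, Benjamini-Hochberg). At 5 days it was 0.26 ± 0.20 (adjusted p = 0.588), and without 5-day library 1 the values were 0.58 ± 0.14 (adjusted p = 0.291) and 0.40 ± 0.14 (adjusted p = 0.477).

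Cdc25c, the phosphatase that active Cdk1 itself switches on, lies on chromosome 18 (ENSMUSG00000044201, 34732993 to 34751533, minus strand). It had 82.48, 64.59 and 80.93 CPM at 24 h, against 64.08, 54.69 and 47.06 CPM in untreated tumours. The groups stood apart only narrowly, by 24 h library 3 and untreated library 1. In the 5-day libraries it had 23.58, 76.29, 71.36 and 81.37 CPM, with libraries 2 to 4 above the untreated range. Its log2 fold change was 0.46 ± 0.38 (SE) at 24 h and 0.20 ± 0.36 at 5 days, and 0.46 ± 0.13 (adjusted p = 0.393) and 0.47 ± 0.13 (adjusted p = 0.353) without 5-day library 1.

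Cdc25a, which also acts on Cdk2 at the start of S phase and is destroyed upon Chk1 signalling, had a negative estimate (ENSMUSG00000032477, chr9:109875579-109893895, plus strand). It had 157.0, 118.7 and 123.3 CPM at 24 h, against 146.3, 164.9 and 146.7 CPM in untreated tumours. 24 h libraries 3 and 4 lay below the untreated range and library 2 inside it. In the 5-day libraries it had 45.86, 132.6, 125.9 and 166.1 CPM. Of these, libraries 1, 2 and 3 lay below the untreated range and library 4 just above it. Its log2 fold change was -0.20 ± 0.37 (SE) at 24 h and -0.37 ± 0.35 at 5 days, or -0.19 ± 0.13 and -0.11 ± 0.13 without 5-day library 1.

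Set against each other in a library, Cdc25b over Cdc25a was 0.487, 0.628 and 0.630 at 24 h, against 0.433, 0.267 and 0.320 in untreated tumours. The 24 h ratios were all higher, by 1.73-fold on the log2(CPM + 0.5) scale (exact two-sided permutation test, p = 0.1, adjusted over 12 ratio tests 0.343). In 5-day libraries 1 to 4 the ratio was 0.939, 0.518, 0.475 and 0.446, again above all untreated libraries, by 1.70-fold (exact permutation p = 0.0571, adjusted 0.343). These are the smallest p-values that 3 against 3 and 4 against 3 libraries can give. Without 5-day library 1, the highest of all, the 5-day difference was 1.44-fold. Both comparisons share the untreated libraries.

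**Figure D2:**
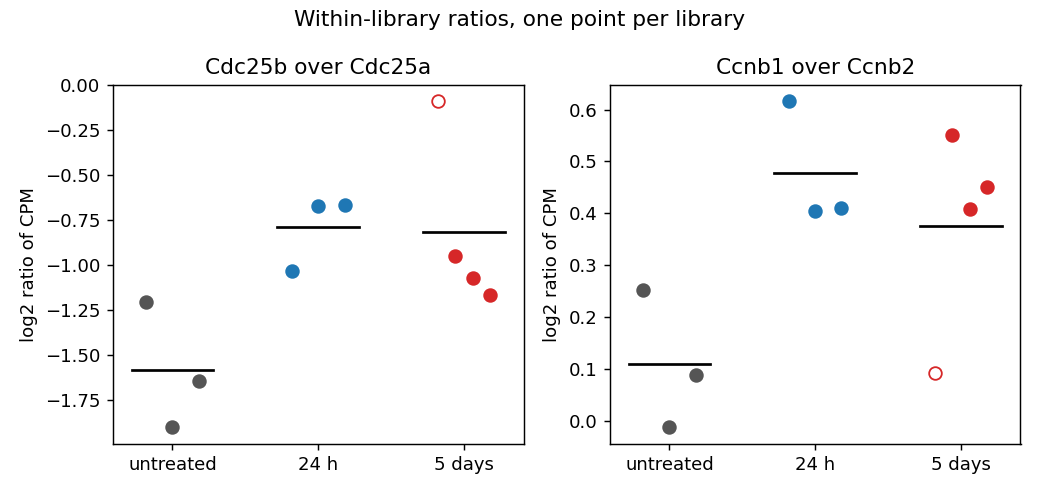
Log2 ratio of CPM within each library for Cdc25b over Cdc25a and for Ccnb1 over Ccnb2, in untreated, 24 h and 5-day tumours, with lines at group means. 5-day library 1 is open. All treated libraries exceed the untreated ones for the Cdc25 pair, and all but 5-day library 1 do so for the cyclin pair.

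Pkmyt1, the membrane-bound inhibitory kinase of Cdk1, lies on chr17:23726336-23736735 (ENSMUSG00000023908, plus strand). It had 31.0, 33.6 and 36.12 CPM at 24 h, against 27.41, 27.17 and 28.13 CPM in untreated tumours. Each 24 h library exceeded each untreated one. In the 5-day libraries it had 12.98, 24.63, 29.16 and 28.19 CPM, all below the 24 h libraries and with libraries 2 to 4 around the untreated values. The log2 fold change was 0.28 ± 0.26 (SE) at 24 h and -0.21 ± 0.25 at 5 days, or 0.29 ± 0.12 (adjusted p = 0.569) and -0.01 ± 0.12 without 5-day library 1. At 5 days against 24 h it was -0.50 ± 0.25 (adjusted p = 0.581), and -0.30 ± 0.12 (adjusted p = 0.602) without that library, all with edgeR's quasi-likelihood test and Benjamini-Hochberg adjustment. Pkmyt1 shares 8.8% of its exon bases with exons of Paqr4 on the opposite strand.

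Wee1, the nuclear inhibitory kinase, had 0 counts in all 10 libraries, and its expression was not measurable from these tables (ENSMUSG00000031016, chr7:110122046-110143286, plus strand). The gene lies wholly inside the span of the antisense gene 1600010M07Rik on the opposite strand, from 109998376 to 110151202, whose exons hold 0.0% of the Wee1 exon bases and which had 21 to 40 counts. Of 1263 protein-coding genes wholly inside another gene's span, 1258 (99.6%) were at 0 in all libraries. Among those inside genes of the opposite strand alone, 807 of 811 (99.5%) were at 0. Of the 8813 that partly overlapped another gene, 507 (5.8%) were at 0, and of the 11842 with no overlap, 2790 (23.6%). The 0 of Wee1 therefore gives no limit on its expression. With Wee1 at 0, the summed cyclins over the inhibitory kinases became cyclins over Pkmyt1, whose log2 ratio averaged 4.23 ± 0.19 at 24 h and 4.36 ± 0.14 in untreated tumours (SD, n = 3 each), with overlapping groups (exact permutation p = 0.4, adjusted 0.762).

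Foxm1 encodes the forkhead factor that drives Ccnb1, Cdc25b and other genes of G2 and is itself activated by cyclin-dependent kinases and Plk1 (ENSMUSG00000001517, chr6:128362967-128376146, plus strand). It had 175.8, 159.3 and 177.8 CPM at 24 h, against 151.4, 143.3 and 146.4 CPM in untreated tumours, without overlap. In the 5-day libraries it had 49.53, 161.3, 151.5 and 180.5 CPM, and library 3 lay only just above the highest untreated library. The log2 fold change was 0.22 ± 0.37 (SE) at 24 h and -0.11 ± 0.35 at 5 days, or 0.22 ± 0.09 (adjusted p = 0.553) and 0.16 ± 0.09 (adjusted p = 0.641) without 5-day library 1. Relative to Mybl2, which encodes B-Myb, Foxm1 differed little, with a log2 ratio of 0.64 ± 0.07 at 24 h and 0.64 ± 0.10 in untreated tumours (SD, n = 3 each, exact permutation p = 0.9).

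Counted over the family, 0 of 9 tested members passed an adjusted p of 0.05 at 24 h, as did 0.0% of all 14956 genes tested (edgeR quasi-likelihood test, Benjamini-Hochberg). DESeq2 and limma voom with library quality weights called 0 members and 0 genes at 24 h as well. At an unadjusted p under 0.05, edgeR found 1 member higher (Cdc25b) and 0 lower, against 1.14% and 0.615% of all genes. The 24 h and untreated groups did not overlap for 5 of 9 members with the 24 h libraries higher, against 7.1% of all genes, and for 0 members with them lower, against 6.67%. The median log2 fold change of the members was 0.22, beside -0.01 for all tested genes. Without 5-day library 1 in the fit, 5 members reached an unadjusted p under 0.05, all higher, against 4.56% of all genes higher and 3.54% lower. DESeq2 without that library, an alternative chosen after seeing the data, called 105 genes at 24 h (0.714%), among them Ccnb1 (log2 fold change 0.43, adjusted p = 0.0269) and Cdc25b (0.57, adjusted p = 0.0419).

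At 5 days against untreated tumours, 0 members passed, beside 0.0% of all genes (edgeR quasi-likelihood test, Benjamini-Hochberg). DESeq2 called 21 genes (0.14%) and no member, and limma voom called 0 genes. No member reached an unadjusted p under 0.05, against 6.38% of all genes higher and 2.03% lower. Without library 1 in the fit, 3 members (Ccnb1, Cdc25b and Cdc25c) did so, all higher, against 4.65% of genes higher and 3.86% lower. No member's groups stood apart with all 4 libraries, against 3.91% of all genes higher and 4.99% lower. With libraries 2 to 4 alone they did so for 3 members, Ccnb1, Cdc25c and Foxm1, all higher, against 6.48% of all genes higher and 7.65% lower. The member median was -0.14 with library 1 and 0.12 without it, beside 0.006 and -0.003 for all tested genes. At 5 days against 24 h, 0 members passed, beside 0.0% of all genes, with DESeq2 calling 3 genes (0.0201%), no member, and limma voom 0. Unadjusted p-values under 0.05 were found for 0 members, against 3.96% of genes higher and 2.34% lower, and, without 5-day library 1, for 1 member lower (Pkmyt1) and 0 higher, against 4.09% of genes lower and 3.67% higher. Cdc25b and Pkmyt1 were lower in each 5-day library than in any 24 h library, as were 4.4% of all genes, and no member was higher (3.27% of genes). For libraries 2 to 4 alone Cdc25b and Pkmyt1 again were the 2 lower members (6.67% of genes) and none was higher (5.18%).

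**Figure D3:**
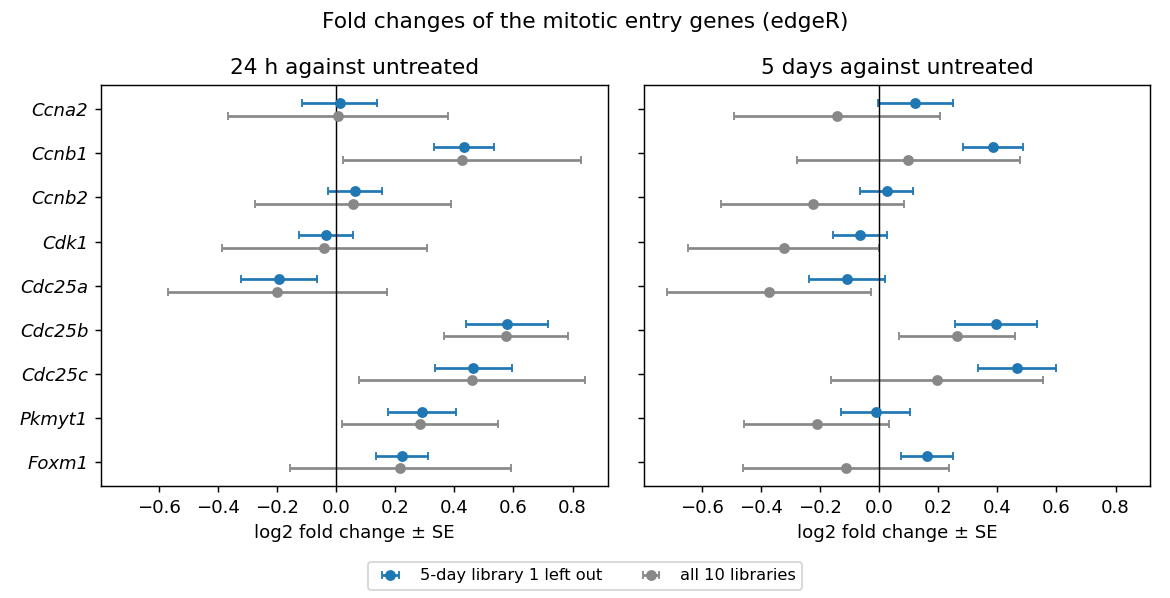
Log2 fold changes with SE (edgeR) of the 9 measured members at 24 h and at 5 days against untreated tumours, with all 10 libraries (grey) and with 5-day library 1 left out (blue). At 24 h the estimates hardly move and the errors shrink, and at 5 days the estimates of all 9 genes move upwards without that library.

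The members were not equally low in library 1 of the 5-day group. Relative to the mean of 5-day libraries 2 to 4, it held 27.5% of Ccnb1, 30.1% of Foxm1, 30.9% of Cdc25c, 32.4% of Cdc25a, 32.5% of Ccna2, 33.7% of Cdk1 and 35.8% of Ccnb2. It retained more of Pkmyt1 (47.5%) and of Cdc25b (64.0%). By the same measure it held 29.9% of the summed adrenergic genes, 21.8% of Mycn, 37.8% of the proliferation marker Mki67 and 968% of the macrophage markers. The part of these other cell types in the members' values of library 1 was not tested.

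Per kb of exon, merged over all annotated transcripts, members ranged widely in level. The order between genes depends on this merged length, which was 1531 bases for Ccnb2, 4934 for Cdk1 and 8023 for Cdc25a. Which transcripts were in use was not tested. In CPM without length, Ccna2 and Cdk1 exceeded Ccnb2 in every untreated library. In untreated tumours Ccnb2 was highest at 94.8 ± 6.39 CPM per kb (SD, n = 3), followed by Ccna2 (67.2 ± 5.86), Cdk1 (42.5 ± 2.06), Ccnb1 (37.2 ± 3.47), Foxm1 (25.6 ± 0.706), Cdc25a (19.0 ± 1.32), Cdc25b (13.7 ± 2.80), Cdc25c (11.2 ± 1.73) and Pkmyt1 (7.57 ± 0.138). Neighbours in this order stood apart except Cdk1 and Ccnb1, and Cdc25b and Cdc25c. At 24 h the order was changed in 2 places without overlap. Ccnb1 (49.97 ± 5.046 CPM per kb) lay above Cdk1 (41.4 ± 2.53), and Cdc25b (20.4 ± 0.422) above Cdc25a (16.6 ± 2.61; SD, n = 3 each). In 5-day libraries 2 to 4, Ccnb1 (48.5 ± 3.30) again lay above Cdk1 (40.7 ± 4.12), while Cdc25b (18.03 ± 1.927) and Cdc25a (17.6 ± 2.69) overlapped (SD, n = 3 each). Counting only exon bases outside other genes, Ccnb2 and Ccna2 overlapped in untreated tumours and at 24 h, Cdc25a and Cdc25b overlapped in untreated tumours, and at 24 h Cdc25c lay above Cdc25a (17.7 against 16.6 CPM per kb), with overlap.

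Over the 9 libraries without 5-day library 1, correlations between members are given as description since the libraries share their groups and genes share depth. Pearson's r of log2(CPM + 0.5) was 0.984 between Ccnb1 and Cdc25c, 0.909 between Ccnb1 and Foxm1 and 0.908 between Ccnb1 and Cdc25b. It was -0.115 between Ccnb1 and Cdk1 and -0.357 between Cdc25a and Cdc25b. After group means were subtracted, Ccnb1 and Cdc25c had r = 0.97 and Ccnb1 and Foxm1 0.798. On that basis Cdc25a had r = 0.886 with Ccna2, 0.662 with Cdk1, 0.656 with Foxm1, 0.599 with Ccnb1 and 0.122 with Cdc25b, and Ccna2 had 0.787 with Foxm1 and 0.769 with Ccnb1. Picking the highest r from many genes over 9 libraries gives large values by selection, and it was at least 0.941 for every member. Of 12502 genes compared, those with the highest r were Cdc25c (0.984), Kif18a (0.984) and Cdc20 (0.969) for Ccnb1, and Ccnb1 (0.984), Kif18a (0.982) and Cntrl (0.967) for Cdc25c. Kif18a encodes a kinesin of chromosome alignment and Cdc20 an activator of the ubiquitin ligase that destroys cyclin B. For Foxm1 they were Ckap2l (0.971), Mpv17l2 (0.958) and Hnrnpl (0.954), and for Cdc25b Gm4961 (0.957), Mxd3 (0.951) and Cntrob (0.947). The nearest genes of Cdk1 were Ythdf1 (0.983), Trappc2 (0.954) and Mrpl22 (0.939), those of Cdc25a were Cct4, Lrwd1 and Caprin1 (0.98 each), and those of Ccna2 were Rab11fip4 (0.969), Hnrnpul1 (0.95) and Gm5364 (0.949). For Ccnb2 they were Klc2 (0.941), Tent4a (0.909) and Kif7 (0.908), and for Pkmyt1 Cenph (0.963), Atp6ap2 (0.962) and Rundc3a (0.96).

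The upstream and downstream genes of the switch were examined as lists that leave out the members. A list of 34 tested FOXM1 and MMB targets had 33 genes above and 1 below a log2 fold change of 0 at 24 h, with a median of 0.32. The members' median was 0.22 and that of all tested genes -0.01, with 48.5% of all tested genes above 0. Groups stood apart for 19 of the 34, all with 24 h higher, against 7.1% of all genes. Psrc1, a spindle gene, had a log2 fold change of 0.97 ± 0.32 (SE), the midbody gene Cep55 0.81 ± 0.29, the G2 gene Gtse1 0.71 ± 0.33 and the kinetochore motor Cenpe 0.57 ± 0.31, and no gene of the list passed (edgeR quasi-likelihood test, Benjamini-Hochberg, adjusted p = 0.9997 for each of the 4). Without 5-day library 1, Cep55 passed at 0.82 ± 0.10 (adjusted p = 0.0297). It had 79.5 ± 3.63 CPM at 24 h and 45.3 ± 3.33 CPM in untreated tumours (SD, n = 3 each).

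Of 15 tested genes of DNA replication, a contrast from the preceding cell cycle phase, all 15 were below 0 at 24 h, with a median of -0.09. So were 7697 of all 14956 tested genes. Groups stood apart for 2 of the 15 (Tyms and Cdc6), both lower, beside 6.67% of all tested genes. Cdc6, a loader of the replicative helicase, had 31.2 ± 2.71 CPM at 24 h and 48.1 ± 7.46 CPM in untreated tumours (SD, n = 3 each), a log2 fold change of -0.63 ± 0.31 (SE). With 5-day library 1 left out, the replication genes had 5 above and 10 below 0 at 5 days (median -0.03), and the FOXM1 and MMB targets 32 above and 2 below (median 0.26), with none of either list passing. Of all tested genes, 49.5% were above 0 in that setting. With all libraries the 5-day medians were -0.30 and 0.00. Groups stood apart at 5 days for 4 of the 15 replication genes (Mcm4, Tyms, Cdc6 and Ccne2), all lower. This held with all libraries (4.99% of all genes lower) and with libraries 2 to 4 (7.65%). Of the FOXM1 and MMB targets, 19 of 34 stood apart with libraries 2 to 4, all higher, against 6.48% of all genes. With all libraries 0 did so, against 3.91%.

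Partners and activators of Cdk1 had 9 of 12 genes above 0 at 24 h, beside 48.5% of all tested genes, with a median of 0.21. In either direction 0 passed. Aurka, the gene of the kinase that MLN8237 blocks, had a log2 fold change of 0.61 ± 0.38 (SE), its cofactor Bora 0.59 ± 0.32 and Cks2, a small Cdk-binding subunit, 0.47 ± 0.30. Aurka had 197.3 ± 26.17 CPM at 24 h and 128.9 ± 9.165 CPM in untreated tumours (SD, n = 3 each), and Bora 142.8 ± 13.17 against 95.05 ± 12.25 CPM. Both stood apart from their untreated values, as did 6 of the 12 genes, all higher, against 7.1% of all genes. The 8 genes of mitotic exit and cyclin destruction were all above 0, beside 48.5% of all tested genes, with a median of 0.28 and 0 passing. Groups stood apart for 3 of the 8, all higher. The F-box cyclin gene Ccnf was at 0.59 ± 0.41, Cdc20 at 0.40 ± 0.38, and the phosphatase genes Cdc14b and Cdc14a at 0.90 ± 0.79 and 0.58 ± 0.55 (SE). Cks2, Plk1, Tpx2, Cdc20 and Ube2c stand in a pair of these lists. The 16 regulators of DREAM and MMB had a median of 0.06 (13 above and 3 below 0). A further list held 7 genes of the Greatwall arm and of the phosphatase that it restrains, which opposes Cdk1. Its median was -0.06 (2 above and 5 below), and Mastl, the gene of the Greatwall kinase, was at 0.31 ± 0.33 (SE). Again 0 passed in both lists.

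Among 13 inputs from the G2 checkpoint, 7 were above and 6 below 0 at 24 h, with a median of 0.01 and 0 passing. Groups stood apart for 2 genes with 24 h higher, against 7.1% of all genes, and for 4 with 24 h lower (Chek1, Gadd45g, Btrc and Fbxw11), against 6.67%. Fbxw11, an F-box gene of a ubiquitin ligase, was at 118.9 ± 2.092 CPM at 24 h and 143.3 ± 3.606 CPM in untreated tumours (SD, n = 3 each), a log2 fold change of -0.27 ± 0.10 (SE), and its close relative Btrc had -0.24 ± 0.15. Chek2, the kinase downstream of ATM, was at 45.2 ± 2.87 CPM at 24 h and 25.1 ± 3.07 CPM in untreated tumours (SD, n = 3 each), a log2 fold change of 0.85 ± 0.18 (SE). Its adjusted p was 0.9997 (edgeR quasi-likelihood test, Benjamini-Hochberg). Chek1, which encodes the Chk1 kinase that ATR activates, was at 48.3 ± 5.93 CPM at 24 h and 56.8 ± 4.50 CPM in untreated tumours (SD, n = 3 each), with groups that did not overlap. The Cdk inhibitor Cdkn1a was at 47.2 ± 19.4 CPM at 24 h and 17.2 ± 8.74 CPM in untreated tumours (SD, n = 3 each), a log2 fold change of 1.45 ± 0.79. These lists were drawn up with earlier results of these libraries known, and their counts are description.

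**Figure D4:**
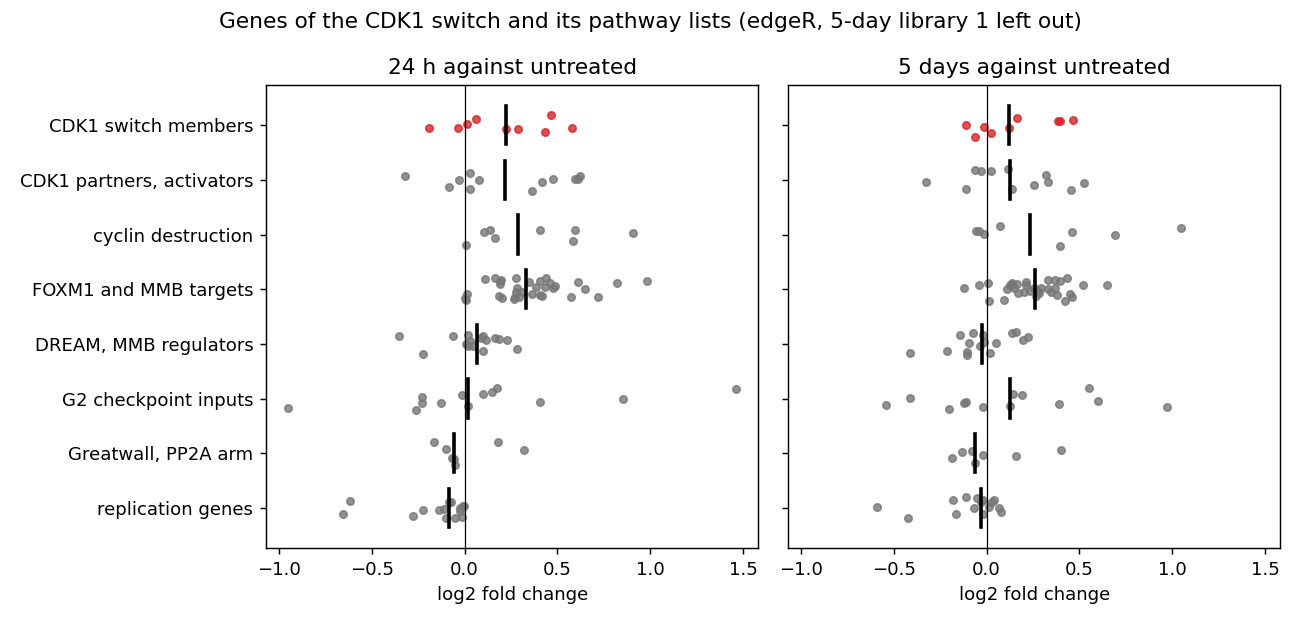
Log2 fold changes (edgeR, 5-day library 1 left out) of the members (red) and of genes of the pathway lists (grey) at 24 h and at 5 days against untreated tumours, 1 point per gene, with black bars at medians. The FOXM1 and MMB targets lie mostly to the right of 0 in both comparisons, and the replication genes at or to the left of it at 24 h.

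Of general markers of proliferation and the transgene's mouse counterpart, Mki67 was at 942.2 ± 47.07 CPM at 24 h and 782.5 ± 114.0 CPM in untreated tumours, Pcna at 208.7 ± 6.606 and 213.0 ± 16.99 CPM, and Mycn at 92.16 ± 11.56 and 96.93 ± 16.21 CPM (SD, n = 3 each), with overlapping groups for all 3. Of the markers of other cells, the sums for macrophages and Schwann cells stood apart at 24 h. Fibroblast markers overlapped, at 1600 to 2390 CPM at 24 h and 1122 to 3123 CPM in untreated libraries. The sums for adipocytes, T cells, adrenal cortex, liver and skeletal muscle overlapped too. The 15 macrophage markers summed to 1241 to 1521 CPM at 24 h, against 577.7 to 984.3 CPM in untreated libraries. Of them, 13 of 15 were above a log2 fold change of 0, beside 48.5% of all tested genes. The 7 Schwann cell markers summed to 110.9 to 137.2 CPM at 24 h, against 92.22 to 102.6 CPM in untreated libraries. The 18 adrenergic genes overlapped, at 2553 to 2993 CPM at 24 h and 2777 to 3572 CPM in untreated libraries. Their part in the members' differences was not tested.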

How the data were processed

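The deposited files hold raw counts per gene, 1 file per library. The submitters' processing notes name mm10, TopHat2 2.1.1, HISAT2 and edgeR and give no order or role. For the read counter, its annotation and its strand setting, nothing was given in the sources used here. Of 54446 identifiers, 54409 had a symbol in GENCODE release M21.

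The main test was edgeR 4.0.16 (R 4.3.3) on these counts. Low genes were removed with filterByExpr (minimum count 10, minimum total 15), library sizes were scaled with TMM (factor 0.812 for 5-day library 1, 1.001 to 1.039 for the others), and the model held a mean for each group over all 10 libraries, with robust estimation of quasi-likelihood dispersions. P-values were adjusted over all 14956 tested genes with Benjamini-Hochberg, and 0.05 was the threshold. SEs were derived from the F statistic. Ratios add 0.5 CPM and were compared with exact permutation tests. Alternatives were DESeq2 1.42.0, limma 3.58.1 voom with quality weights, other scaling and filters, a replicate block, and left-out libraries. DESeq2, limma voom and the replicate block without 5-day library 1 were added after seeing the data. The script was tested on simulated data. Exon overlaps come from GENCODE release M21 and promoters from RefSeq.

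The members, the lists and the rules for naming genes were chosen with earlier results of these data known. Named beside the members were up to 4 genes per list and comparison with the smallest p, a fixed set (Mki67, Pcna, Mycn, Th, Cdkn1a, Aurka, Chek1 and Mybl2) and the 3 genes nearest to each member with a mean of at least 5 CPM. Genes listed for groups that stood apart or for a place in several lists were named after their values were seen.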

Additional observations from a re-analysis of the deposited data

How the results depend on the processing

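No member or gene passed in any of the 3 comparisons with all 10 libraries in edgeR, and the exceptions came with other libraries or tools. At 24 h against untreated tumours the number of genes called was 7 with only the compared groups in the fit, 3 without 5-day libraries 1 and 2, 105 with DESeq2 and 2 with limma voom, both without 5-day library 1. With 1 library left out at a time it was 0 to 2 genes, the 2 without 5-day library 1. Members called were 2 with DESeq2 without 5-day library 1 (Ccnb1 and Cdc25b). At 5 days DESeq2 called 21 genes, and 77 without library 1. At 5 days against 24 h DESeq2 called 3 genes, 20 without library 1, and 2 were called by edgeR without 5-day libraries 1 and 2. The cause was not tested.

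The member median log2 fold change at 24 h ranged from 0.188 to 0.271 with 1 library left out. At 5 days it ranged from -0.301 (without library 4) to 0.123 (without library 1), and at 5 days against 24 h from -0.426 (without 5-day library 4) to -0.038 (without 5-day library 1). At 5 days it was 0.169 without libraries 1 and 2, 0.057 with limma voom, and 0.129 with DESeq2 and 0.093 with limma voom without library 1. At 5 days against 24 h these were -0.043, -0.088, -0.025 and -0.067. A replicate block gave medians of -0.164 at 24 h, -0.399 at 5 days and -0.19 between treated groups, and no call changed. With the block and without 5-day library 1 they were 0.095 at 5 days and -0.036 between treated groups. In that setting 6 of 9 members were above 0 at 24 h, beside 51.5% of all genes. With the block and all libraries 4 of 9 members were above 0 at 24 h, beside 48.1%. Deviations of same-numbered libraries correlated at -0.395 to 0.247, and those of differently numbered libraries at -0.55 to 0.487. With 3 or 4 libraries per group, these values cannot decide whether the numbers pair the samples. Ccnb1, Cdc25a, Cdc25b, Cdc25c and Pkmyt1 kept their sign at 24 h in 18 alternatives, Foxm1 in all but 1 and Ccnb2 and Cdk1 in all but 2, while Ccna2, near 0, changed sign in 5. Ratios kept their direction with 2 CPM added.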
